A study of Homo sapiens with 8 samples.

Results

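The genes described here are 51 human 2-oxoglutarate-dependent dioxygenases and close relatives other than the TET enzymes. They were chosen by name as rows of the deposited gene tables: JmjC histone demethylases and hydroxylases, hydroxylases of the hypoxia-inducible factor (HIF), collagen prolyl and lysyl hydroxylases, the ALKBH family with FTO, the OGFOD proteins and a few single enzymes. All 51 were found among 61125 listed genes. RNA-seq was done on U-937 cells, an established leukemia line of human pro-monocytes, exposed for 72 h to L-ascorbic acid at 250 µM and all-trans retinoic acid at 1 µM together (LAA+ATRA), to all-trans retinoic acid alone at 1 µM (ATRA), to L-ascorbic acid alone at 250 µM (LAA), or to the vehicle of both compounds (PBS with DMSO). Each of the 4 groups had 2 libraries, 8 in all, from poly-A-selected RNA. The series asked which genes differ in expression between these treatments. No label says that the 2 libraries of a group stem from separate cultures; what a p-value here reflects is the spread of these libraries, which may be technical.

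These enzymes use molecular oxygen, 2-oxoglutarate and an Fe(II) ion to hydroxylate a substrate or to remove a methyl group from it, and they release succinate and carbon dioxide. Ascorbate keeps the iron reduced, and collagen prolyl hydroxylase is the classical enzyme whose loss of activity without ascorbate gives scurvy. The family is therefore where ascorbate acts as a cofactor at the level of enzyme activity, which RNA-seq does not measure. The values below are transcript levels.

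Estimated counts summed to between 18462552 and 24166770 per library. Levels between genes are given as FPKM, a value per length of transcript. Levels of 1 gene between libraries are given as CPM, the count scaled to library size after TMM normalization. Fold changes are from edgeR's quasi-likelihood test on the estimated counts of all 8 libraries. A gene was called where the Benjamini-Hochberg adjusted p, over all 14995 genes tested in a comparison, was under 0.05. Of the 51 genes, 47 had enough counts to be tested. Of 10 markers set for a monocytic line, 9 exceeded 1 CPM, among them SPI1, CD33 and LYZ; MPO did not. Their summed level was 7260 to 7892 CPM in LAA+ATRA libraries, 6445 to 6715 CPM in ATRA libraries, 3352 to 3484 CPM in LAA libraries and 3099 to 3218 CPM in vehicle libraries, a sum made up mostly of ELANE. Of the 10 markers, 8 were higher in every library with ATRA than in every library without it. LYZ was not, with 697.4 and 1087 CPM in LAA+ATRA, 527.6 and 607.4 CPM in ATRA, 763.7 and 754.1 CPM in LAA, and 445.9 and 499.5 CPM in vehicle, nor was MPO. Of 6 markers of fibroblasts and stroma, cells rich in collagen hydroxylases, 1 exceeded 1 CPM, and their sum was at most 2.77 CPM in LAA+ATRA libraries and at most 1.54 CPM in vehicle libraries. Among markers of T, erythroid, epithelial and endothelial cells, CD2 and PECAM1 exceeded 1 CPM in a library, and the erythroid sum was at or near 0. Their part in the results below was not tested. The source is bulk RNA, so fewer cells of a state and less RNA per cell cannot be told apart.

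U-937 cells expressed nearly the whole set. In vehicle, 6 genes were at or above 50 FPKM, 25 lay between 10 and 50 FPKM, 15 between 1 and 10 FPKM, and 5 under 1 FPKM. The highest was PLOD3, a lysyl hydroxylase of collagen that also carries glycosyltransferase activity, with a mean of 136 ± 0.281 FPKM in vehicle (SD, n = 2). It read 290.9 and 258.6 CPM in LAA+ATRA, 287.5 and 241.4 CPM in ATRA, 259.8 and 292.6 CPM in LAA, and 318.3 and 317 CPM in vehicle. No comparison called it, although by CPM every treated library lay below both vehicle libraries. By FPKM both LAA+ATRA libraries, at 139.33 and 136.06, were above both vehicle libraries, at 136.01 and 135.61. ALKBH7, a mitochondrial member of the ALKBH family, came next in vehicle and read 95.8 and 57.0 CPM in LAA+ATRA, 72.0 and 76.2 CPM in ATRA, 57.1 and 71.8 CPM in LAA, and 65.1 and 56.6 CPM in vehicle. Its LAA+ATRA libraries differed from each other by more than any group means did, and no comparison called it.

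Within several families, expressed genes stood beside silent or nearly silent ones. P3H1, the prolyl 3-hydroxylase of fibrillar procollagen, read 195.6 and 163 CPM in LAA+ATRA, 188.8 and 177.3 CPM in ATRA, 150.7 and 162.4 CPM in LAA, and 175.3 and 177.1 CPM in vehicle, with the groups close to each other and no call. Its paralog P3H2 and the lysyl hydroxylase PLOD2 had 0 counts in all 8 libraries, and a count of 0 allows up to 0.129 to 0.168 CPM per library (3 counts, counting error only). EGLN3, the HIF prolyl hydroxylase that hypoxia induces in many cells, was over 0 in 1 of 2 LAA+ATRA libraries (0.0559 CPM) and in 1 of 2 LAA libraries (0.105 CPM). P4HA2, the second catalytic subunit of collagen prolyl 4-hydroxylase, peaked at 0.280 CPM. These 4 genes were too low to test and enter no count below. PHYH, the peroxisomal phytanoyl-CoA hydroxylase, read 39.0 and 42.9 CPM in LAA+ATRA, 34.7 and 42.7 CPM in ATRA, 41.4 and 38.2 CPM in LAA, and 44.5 and 39.9 CPM in vehicle. The groups overlapped in every comparison of PHYH.

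**Figure D1:**
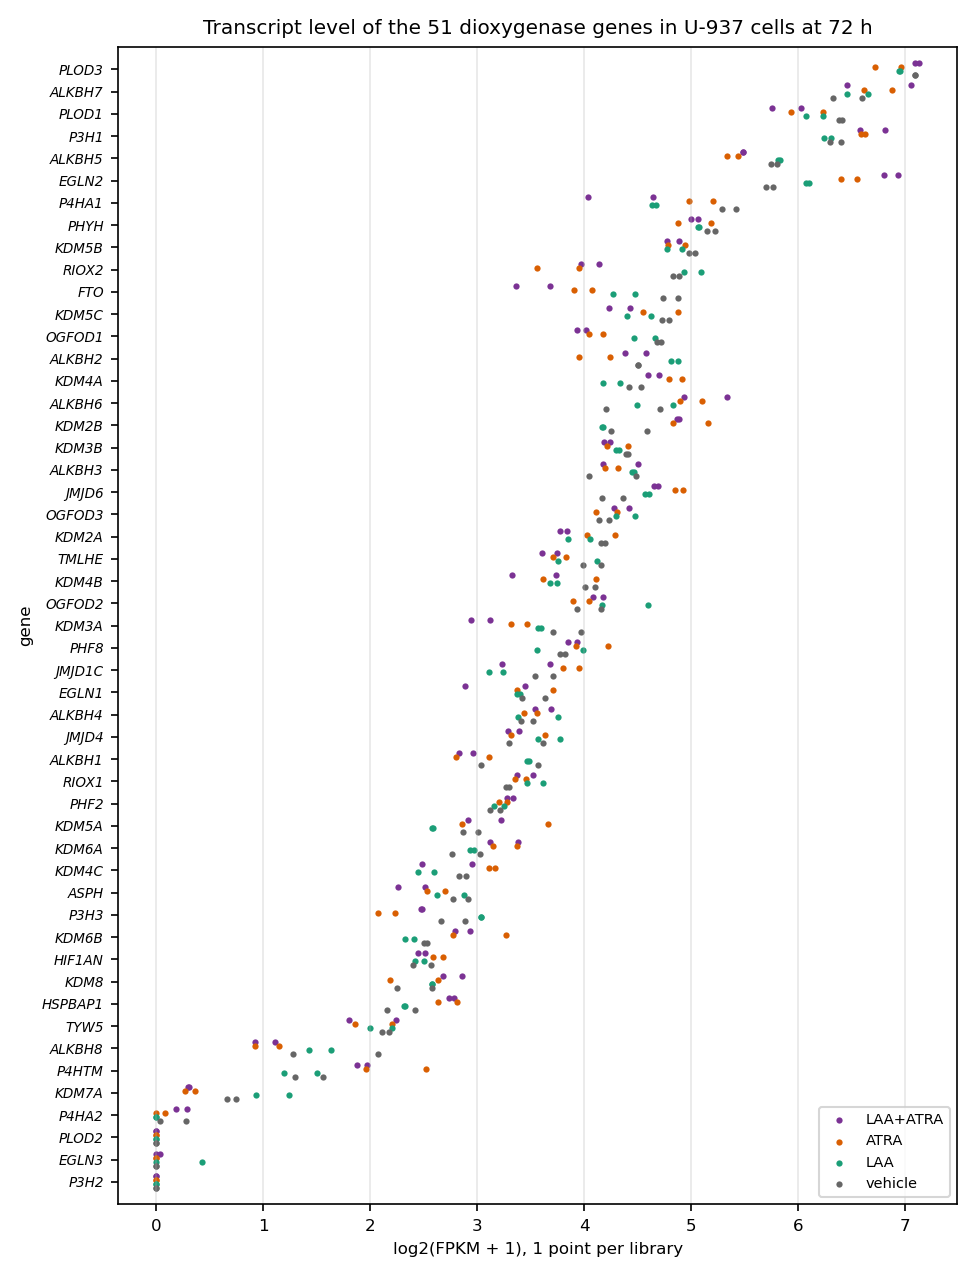
Transcript level of each of the 51 genes on a log2(FPKM + 1) axis, with 1 point per library and colour for the group (LAA+ATRA, ATRA, LAA, vehicle). Genes are ordered by their vehicle mean, from PLOD3 at 136 FPKM at the top to the 4 genes at or near 0 at the bottom. EGLN2 spreads to the right and RIOX2 and FTO to the left in libraries with ATRA.

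The first question was how retinoic acid alone changed these genes. ATRA raised 7 and lowered 10 of the 47 tested genes, against a background of 21.9% of all tested genes called higher and 21% called lower, so with 14.9% higher and 21.3% lower the members' share was no larger than, or near, that of all genes. Higher were KDM2B, KDM4A, KDM6B, EGLN2, HIF1AN, ALKBH6 and HSPBAP1. Lower were KDM3A, KDM7A, RIOX2, P3H3, ALKBH2, ALKBH5, ALKBH8, FTO, OGFOD1 and ASPH. The median log2 fold change of the members was -0.02, and that of all genes 0.00 when rounded.

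Among the HIF hydroxylases, EGLN2 (PHD1), a prolyl hydroxylase that marks HIF-alpha for VHL-dependent degradation, rose. It read 185.4 and 163.5 CPM in LAA+ATRA, 153.7 and 149.4 CPM in ATRA, 117.1 and 127.6 CPM in LAA, and 97.4 and 96.9 CPM in vehicle. The 4 groups did not overlap, with vehicle lowest, then LAA, ATRA and LAA+ATRA. ATRA against vehicle gave a log2 fold change of 0.64 (SE 0.10, adjusted p = 0.000283, edgeR). EGLN1 (PHD2), the main oxygen sensor of most cells, read 34.5 and 23.4 CPM in LAA+ATRA, 42.4 and 33.0 CPM in ATRA, 33.4 and 32.5 CPM in LAA, and 37.4 and 39.3 CPM in vehicle, and was called in no comparison. By FPKM, EGLN2 made up 91.77% and 94.99% of the summed EGLN transcript level in LAA+ATRA, 87.4% and 90.9% in ATRA, 87.9% and 87.1% in LAA, and 84.0% and 82.4% in vehicle. EGLN2 was the predominant EGLN transcript in every library, and its share was higher in all libraries of the treated groups than in vehicle. HIF1AN (FIH), the asparaginyl hydroxylase that blocks HIF's coactivator binding, rose slightly to 62.8 and 60.4 CPM in ATRA, against 53.9 and 46.7 CPM in vehicle (log2 fold change 0.29, adjusted p = 0.0407). That call was made under 5 of the 18 alternative settings.

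EGLN2 lies at chr19:40798996-40808433 on the plus strand (GENCODE 29, GRCh38). Its exons overlap those of the read-through transcript RAB4B-EGLN2 on the same strand, to which 17 and 13 counts were assigned in LAA+ATRA, 53 and 23 in ATRA, 0 and 10 in LAA, and 4 and 7 in vehicle. Reads shared by both cannot be split with certainty. Among all 51 genes, 22 have exons that overlap a gene on the opposite strand and 9 one on the same strand, and the labels do not give the strand setting of the counting.

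The JmjC histone demethylases moved in both directions under ATRA. KDM2B, an H3K36 demethylase and DNA-binding subunit of a variant Polycomb complex, read 117.6 and 104.8 CPM in LAA+ATRA, 136.8 and 117.1 CPM in ATRA, 61.4 and 67.9 CPM in LAA, and 75.3 and 71.5 CPM in vehicle. Every library with ATRA was above every library without it, and the log2 fold change of ATRA against vehicle was 0.79 (SE 0.11, adjusted p = 0.000133). KDM6B (JMJD3), an H3K27 demethylase known from macrophage activation, read 45.9 and 36.6 CPM in LAA+ATRA, 58.6 and 38.0 CPM in ATRA, 27.0 and 29.05 CPM in LAA, and 32.4 and 31.4 CPM in vehicle. The ATRA libraries were above vehicle but far apart, with a log2 fold change of 0.59 (SE 0.18, adjusted p = 0.0163). Without ATRA replicate 1 this was 0.26 (adjusted p = 0.176). Its paralog KDM6A (UTX), at 28.1 and 26.1 CPM in ATRA and 22.4 and 21.1 CPM in vehicle, missed the threshold (log2 fold change 0.32, adjusted p = 0.0721). In the other groups KDM6A read 21.0 and 25.7 CPM in LAA+ATRA and 18.7 and 20.9 CPM in LAA.

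KDM4A, an H3K9 and H3K36 demethylase, rose to 119 and 108.8 CPM in ATRA, against 90.0 and 83.2 CPM in vehicle (log2 fold change 0.40, SE 0.10, adjusted p = 0.00884). It read 94.0 and 101.7 CPM in LAA+ATRA and 71.1 and 78.8 CPM in LAA, so that LAA+ATRA lay between ATRA and vehicle. KDM7A, an H3K9 and H3K27 demethylase, was barely expressed, with 2.01 and 1.91 CPM in LAA+ATRA, 1.71 and 2.59 CPM in ATRA, 5.71 and 6.93 CPM in LAA, and 5.29 and 4.46 CPM in vehicle. Its ATRA-containing libraries were all below the others, and it fell by 1.17 on the log2 scale with ATRA (SE 0.28, adjusted p = 0.00533). KDM3A, an H3K9 demethylase that is itself a HIF target, read 29.4 and 28.01 CPM in LAA+ATRA, 41.4 and 36.2 CPM in ATRA, 41.5 and 43.6 CPM in LAA, and 51.1 and 63.6 CPM in vehicle. Each treated group was below vehicle and LAA+ATRA was below all others, with a log2 fold change of -0.57 for ATRA against vehicle (SE 0.12, adjusted p = 0.00276).

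RIOX2 (MINA53), a nucleolar histidyl hydroxylase of a ribosomal protein, was among the strongest falls. It read 31.5 and 41.6 CPM in LAA+ATRA, 27.6 and 32.7 CPM in ATRA, 66.7 and 67.9 CPM in LAA, and 65.5 and 60.3 CPM in vehicle. All libraries with ATRA lay below all without it, and ATRA lowered it by a log2 fold change of -1.06 (SE 0.14, adjusted p = 5.63e-05). RIOX2 lies at chr3:97941818-97972457 on the minus strand, and 1898 of its exon bases overlap CRYBG3 on the opposite strand. CRYBG3 had 125 and 172 counts in LAA+ATRA, 317 and 340 in ATRA, 151 and 173 in LAA, and 302 and 266 in vehicle, so it did not follow the RIOX2 pattern across these libraries. Its paralog RIOX1 was not called (log2 fold change 0.11, adjusted p = 0.531). JMJD6, a lysyl hydroxylase of splicing factors, read 28.7 and 27.8 CPM in LAA+ATRA, 34.7 and 33.5 CPM in ATRA, 28.2 and 33.0 CPM in LAA, and 24.9 and 29.6 CPM in vehicle, with ATRA above vehicle and an adjusted p of 0.0535 in edgeR.

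**Figure D2:**
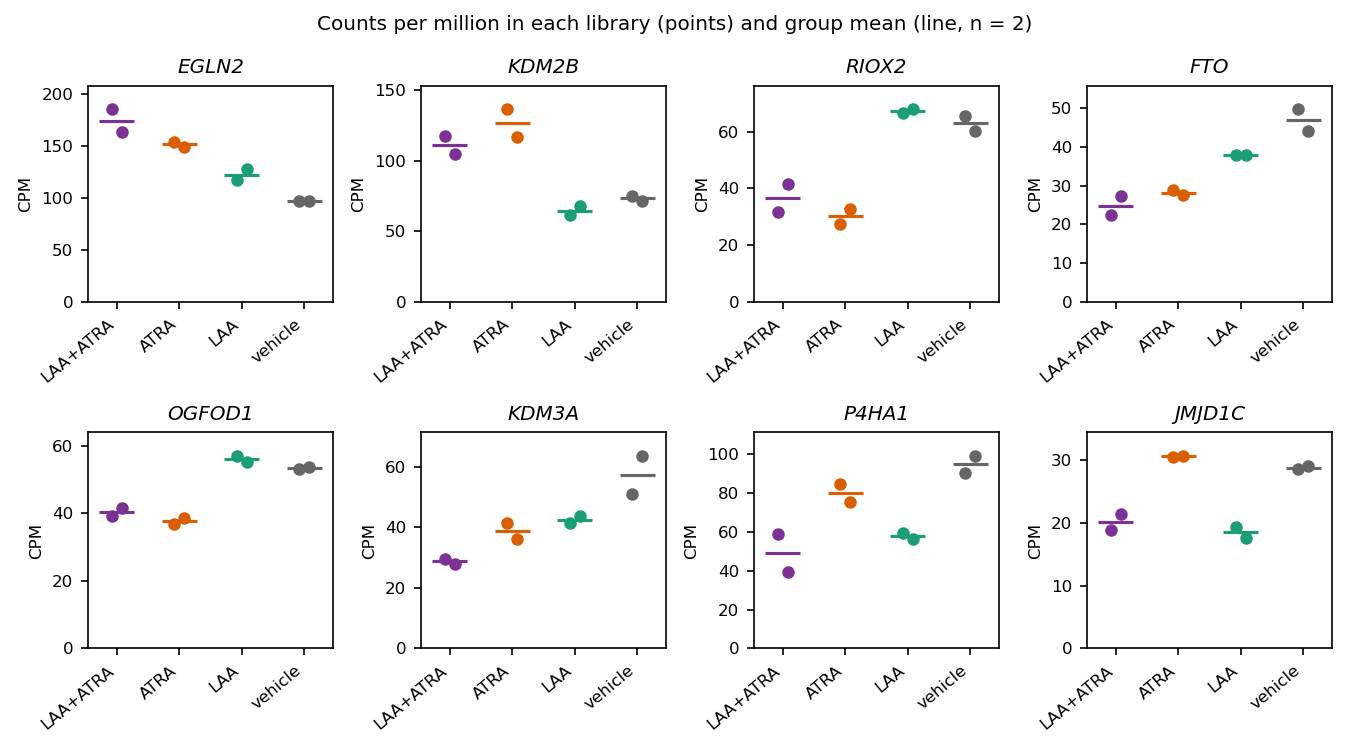
CPM (linear axis from 0) of 8 genes in each library, as points, with the mean of the 2 libraries of a group as a line; groups run LAA+ATRA, ATRA, LAA, vehicle. EGLN2 and KDM2B are higher and RIOX2, FTO and OGFOD1 lower in the libraries with ATRA, while P4HA1 and JMJD1C are lower in the libraries with LAA.

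Both RNA m6A demethylases fell with ATRA. FTO, which also acts on cap-adjacent m6Am, read 22.3 and 27.3 CPM in LAA+ATRA, 28.8 and 27.6 CPM in ATRA, 38.0 and 37.8 CPM in LAA, and 49.7 and 44.1 CPM in vehicle. Every library with ATRA was below every library without it, and LAA was below vehicle. FTO fell by 0.74 on the log2 scale with ATRA (SE 0.12, adjusted p = 0.000386). ALKBH5 was more abundant, with 120.6 and 94.5 CPM in ATRA against 149.6 and 143.9 CPM in vehicle, and fell by 0.45 (SE 0.13, adjusted p = 0.0119).

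The other ALKBH genes diverged. ALKBH6, whose substrate is little known, read 23.99 and 25.1 CPM in LAA+ATRA, 24.1 and 20.7 CPM in ATRA, 20.7 and 15.0 CPM in LAA, and 12.1 and 17.2 CPM in vehicle, and rose with ATRA by 0.61 (SE 0.19, adjusted p = 0.0197). ALKBH2, a DNA alkylation repair enzyme, read 14.7 and 15.4 CPM in LAA+ATRA, 9.79 and 12.1 CPM in ATRA, 20.3 and 20.8 CPM in LAA, and 16.1 and 17.0 CPM in vehicle. Here ATRA libraries were lowest and LAA libraries highest, and ATRA against vehicle gave -0.59 (SE 0.14, adjusted p = 0.00568). ALKBH8, a tRNA wobble-uridine methyltransferase and hydroxylase, read 4.42 and 3.57 CPM in LAA+ATRA, 4.37 and 3.45 CPM in ATRA, 6.35 and 6.15 CPM in LAA, and 7.61 and 5.00 CPM in vehicle (log2 fold change -0.69 for ATRA, adjusted p = 0.0453). ALKBH3 and ALKBH4 showed log2 fold changes of 0.09 and 0.00 with ATRA and no call.

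4 other enzymes completed the ATRA calls: OGFOD1, P3H3, ASPH and HSPBAP1. OGFOD1, a prolyl hydroxylase of the ribosomal protein RPS23, read 39.3 and 41.5 CPM in LAA+ATRA, 36.9 and 38.7 CPM in ATRA, 57.1 and 55.2 CPM in LAA, and 53.2 and 53.7 CPM in vehicle. Its libraries separated fully by ATRA, with a log2 fold change of -0.50 (SE 0.10, adjusted p = 0.0013). P3H3, a prolyl 3-hydroxylase relative, read 9.95 and 8.75 CPM in LAA+ATRA, 7.08 and 7.38 CPM in ATRA, 13.8 and 16.2 CPM in LAA, and 12.9 and 13.9 CPM in vehicle, and fell by 0.89 with ATRA (SE 0.16, adjusted p = 0.000756). ASPH, which hydroxylates aspartate and asparagine in EGF-like domains, read 16.5 and 12.7 CPM in LAA+ATRA, 17.9 and 18.8 CPM in ATRA, 19.7 and 22.4 CPM in LAA, and 26.6 and 23.6 CPM in vehicle. LAA+ATRA was lowest and vehicle highest for ASPH, with -0.45 for ATRA (SE 0.15, adjusted p = 0.0252). HSPBAP1, a small JmjC protein that binds a heat shock protein, read 9.56 and 9.35 CPM in LAA+ATRA, 8.19 and 9.36 CPM in ATRA, 6.25 and 6.20 CPM in LAA, and 6.69 and 5.39 CPM in vehicle, and rose by 0.54 (SE 0.18, adjusted p = 0.031).

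The ATRA calls of KDM2B, KDM7A, RIOX2, EGLN2, P3H3, ALKBH2, FTO and OGFOD1 were made without each library in turn. Without vehicle replicate 2, the edgeR adjusted p was 0.0554 for KDM3A, 0.103 for KDM4A, 0.0859 for KDM6B, 0.33 for HIF1AN (log2 fold change 0.19, against 0.29 with all libraries) and 0.222 for HSPBAP1. Without vehicle replicate 1, it was 0.0675 for KDM6B, 0.0825 for ALKBH5, 0.204 for ALKBH6 (0.38, against 0.61 with all libraries), 0.404 for ALKBH8 (-0.36, against -0.69) and 0.182 for ASPH. Leaving out ATRA replicate 1 gave 0.176 for KDM6B, 0.11 for HIF1AN, 0.0879 for ALKBH6 and 0.089 for ASPH, and leaving out ATRA replicate 2 gave 0.0678 for HIF1AN, 0.0963 for ALKBH5 (-0.28, against -0.45), 0.213 for ALKBH8, 0.0545 for ASPH and 0.146 for HSPBAP1. HIF1AN and ALKBH8 also missed the threshold without either LAA library, at between 0.0621 and 0.0634.

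**Figure D3:**
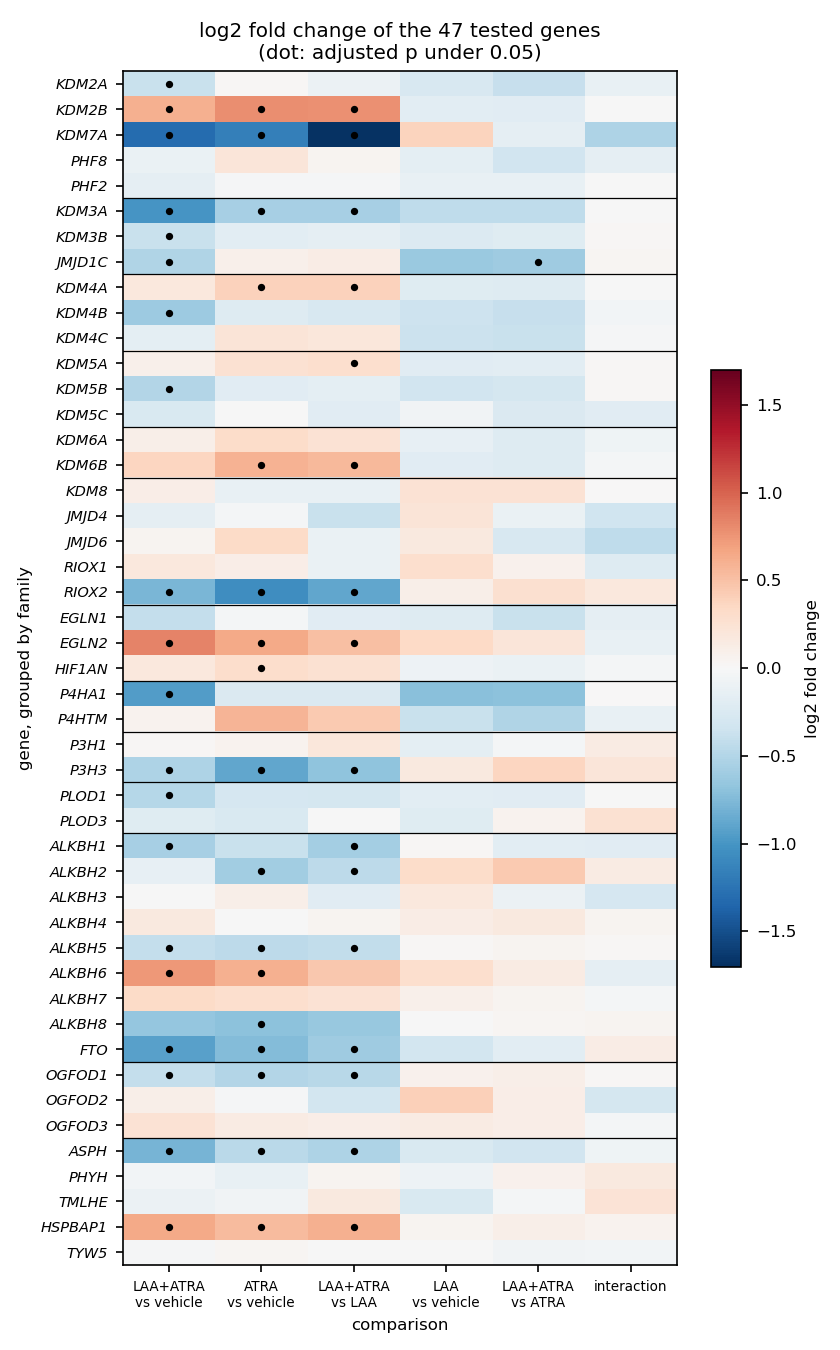
Log2 fold change of the 47 tested genes (rows, grouped by family with lines between families) in 6 comparisons (columns), red for higher and blue for lower, with a dot where the adjusted p was under 0.05. Most dots lie in the 3 columns that contrast ATRA-containing with ATRA-free libraries. They mark 42.6% of the genes in LAA+ATRA against vehicle, 36.2% in ATRA against vehicle and 34% in LAA+ATRA against LAA. The column for LAA alone has none, and the column for LAA added to ATRA has 1, at JMJD1C.

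The second question was what L-ascorbic acid alone did. None of the 47 genes was called higher or lower in LAA against vehicle by edgeR, against a background of 0.02% and 0.00667% of all tested genes; 11 of the members had an unadjusted p under 0.05, as did 2833 of the 14995 genes. DESeq2 called 1 member higher (EGLN2) and 4 lower (KDM3A, KDM5B, JMJD1C and P4HA1), where it called 2.79% of all genes higher and 1.97% lower. The members' median log2 fold change was -0.08, and that of all genes 0.01. With the offsets for length and GC content described below, these medians were 0.003 and 0.024. With the lengths implied by the FPKM they were -0.05 and 0.03. The farthest from 0 was P4HA1, the main catalytic subunit of collagen prolyl 4-hydroxylase and a classical ascorbate-dependent enzyme. P4HA1 read 59.0 and 39.4 CPM in LAA+ATRA, 84.6 and 75.4 CPM in ATRA, 59.7 and 56.6 CPM in LAA, and 90.4 and 99.3 CPM in vehicle. Both LAA libraries were below both vehicle libraries, and both LAA+ATRA libraries below both ATRA libraries. LAA against vehicle gave -0.71 (SE 0.15, 95% interval -1.04 to -0.37), with an adjusted p of 0.0569 in edgeR.

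JMJD1C, a large JmjC protein of the KDM3 family that is known as a coactivator in myeloid leukemia, was close behind. It read 18.8 and 21.4 CPM in LAA+ATRA, 30.5 and 30.7 CPM in ATRA, 19.3 and 17.6 CPM in LAA, and 28.5 and 28.96 CPM in vehicle. The 4 libraries with LAA were all below the 4 without it. The log2 fold change was -0.64 (SE 0.12, adjusted p = 0.0509) in LAA against vehicle. In LAA+ATRA against ATRA it was -0.60 (SE 0.12, adjusted p = 0.0433). JMJD1C was the 1 member called when LAA was added to ATRA, where 0 were called higher, against a background of 0.493% of genes higher and 0.52% lower. That call was made under 3 of the 18 alternatives and was lost whichever 1 of the 8 libraries was left out, with adjusted p between 0.0517 (LAA+ATRA replicate 2 left out) and 0.134 (its replicate 1 left out).

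LAA against vehicle and LAA+ATRA against ATRA share no library, so they can be set side by side. P4HA1 gave -0.71 and -0.70, JMJD1C -0.64 and -0.60, and KDM3A -0.43 and -0.43. The sign was the same in both for 39 of 47 members (83%), 14 positive and 25 negative, and for 68.5% of all tested genes. Across members the log2 fold changes had a Pearson r of 0.796 and a Spearman rho of 0.788 as a description, since genes of 1 set of libraries share depth and composition. The mean of both LAA contrasts, a comparison of 4 libraries with LAA and 4 without added after the data were seen, called 2 members higher (EGLN2 and ALKBH2) and 6 lower (KDM2A, KDM3A, JMJD1C, KDM4C, KDM5B and P4HA1), that is 4.26% and 12.8% of the members, against a background of 6.49% of genes higher and 5.98% lower. For P4HA1 this mean was -0.70 (SE 0.11, adjusted p = 0.00576), for JMJD1C -0.62 (SE 0.08, adjusted p = 0.0045) and for KDM3A -0.43 (SE 0.09, adjusted p = 0.0125). For EGLN2 it was 0.27 (SE 0.07, adjusted p = 0.032) and for ALKBH2 0.38 (SE 0.10, adjusted p = 0.0309).

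Of these 8, P4HA1 and JMJD1C were called with each library left out in turn. The other 6 lost the call without either LAA library, with adjusted p of 0.104 and 0.0824 for KDM2A, 0.0605 and 0.05 for KDM3A, 0.0875 and 0.095 for KDM4C, 0.0886 and 0.0595 for KDM5B, 0.0836 and 0.149 for EGLN2, and 0.0938 and 0.107 for ALKBH2, without LAA replicate 1 and 2 in that order. All 6 also lost it without vehicle replicate 2, at between 0.0593 and 0.119, and all but KDM3A without vehicle replicate 1, at between 0.0878 and 0.148. Further losses were EGLN2 and ALKBH2 without LAA+ATRA replicate 1 (0.0863 and 0.0644), KDM2A, KDM4C and ALKBH2 without LAA+ATRA replicate 2 (0.0556, 0.0582 and 0.0617), and KDM2A and ALKBH2 without ATRA replicate 1 (0.0514 and 0.0716). KDM2A, an H3K36 demethylase of CpG islands, read 61.9 and 56.8 CPM in LAA+ATRA, 86.7 and 69.7 CPM in ATRA, 62.2 and 65.2 CPM in LAA, and 80.0 and 74.0 CPM in vehicle. KDM4C, an H3K9 demethylase, read 18.7 and 16.2 CPM in LAA+ATRA, 23.6 and 22.0 CPM in ATRA, 15.4 and 15.1 CPM in LAA, and 18.5 and 20.6 CPM in vehicle. KDM5B, an H3K4 demethylase, read 100.3 and 95.9 CPM in LAA+ATRA, 125.8 and 116.3 CPM in ATRA, 106.2 and 114.5 CPM in LAA, and 141.3 and 135.2 CPM in vehicle. In all 3 the LAA libraries lay below vehicle and the LAA+ATRA libraries below ATRA.

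**Figure D4:**
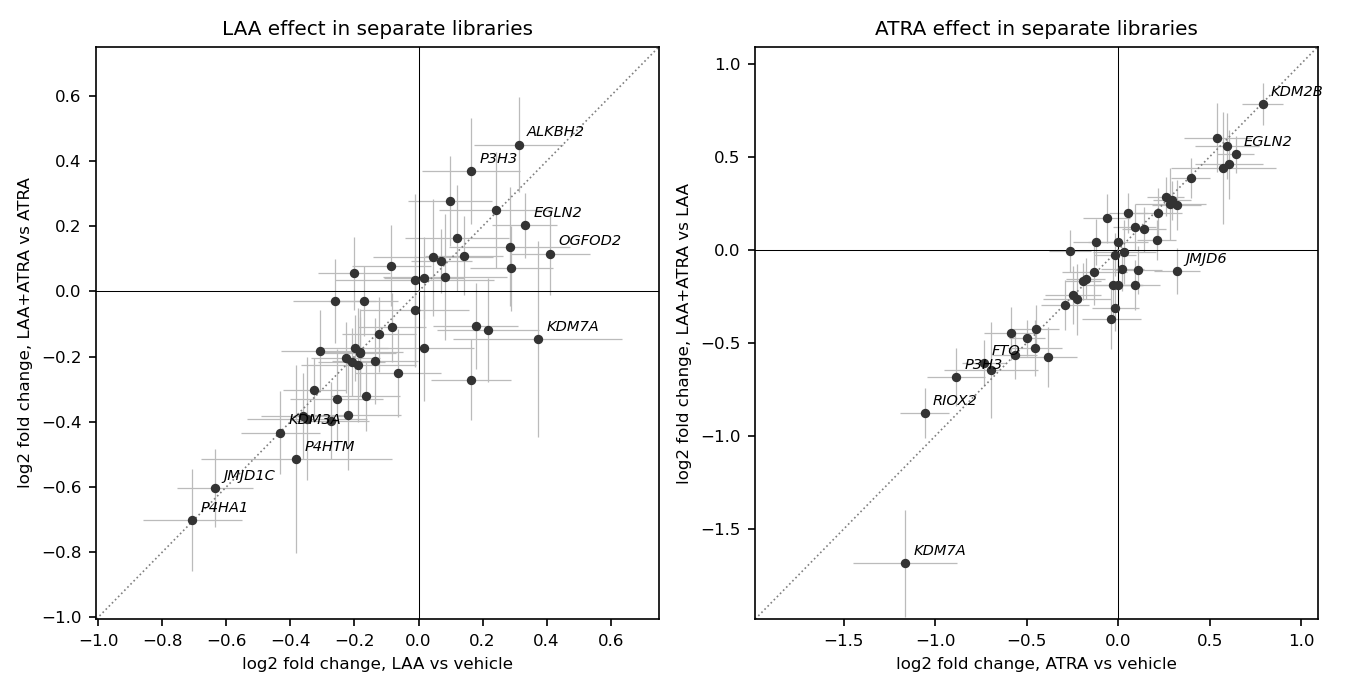
Log2 fold change of each of the 47 genes for the same compound in separate libraries, with standard error bars and the line of equality (dotted); at left LAA, alone on x and added to ATRA on y, at right ATRA, alone on x and added to LAA on y. P4HA1 and JMJD1C lie at the lower left of the LAA plot, near -0.7 and -0.6 on both axes, and RIOX2 and KDM7A at the lower left of the ATRA plot.

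Transcript length moved with the LAA values. Over all genes, the median LAA change averaged over both backgrounds was 0.204 in the shortest quartile of effective transcript length, 0.0621 and -0.0388 in the middle quartiles and -0.154 in the longest; for the members these medians were 0.137 (4 genes), -0.00273 (13), -0.0224 (12) and -0.21 (18). The members were longer, with a median of 2.36 kb against 2 kb for all tested genes. With offsets for length and GC content fitted per library, P4HA1 gave -0.59 (adjusted p = 0.0312) and JMJD1C -0.52 (adjusted p = 0.00997), while EGLN2 gave 0.16 (adjusted p = 0.0915). Those offsets called 1 member higher, RIOX2 (0.28, adjusted p = 0.0414), and 2 lower, against 3.51% of all genes higher and 2.14% lower. With the length that the deposited FPKM imply for each library, P4HA1 gave -0.71 (adjusted p = 0.0215), JMJD1C -0.45 (adjusted p = 0.0525) and EGLN2 0.40 (adjusted p = 0.018). FTO, not called without a length correction, was at -0.45 (adjusted p = 0.0343). The members called with the implied lengths were thus EGLN2 higher and P4HA1 and FTO lower, against 4.29% of all genes higher and 3.19% lower. KDM2A, KDM3A, KDM4C, KDM5B and ALKBH2 were called under neither correction. With the implied lengths, KDM4C was at -0.41 and ALKBH2 at 0.40, no nearer to 0 than without a correction (-0.37 and 0.38), KDM3A at -0.32, KDM2A at -0.28 and KDM5B at -0.08. With length and GC offsets these values were -0.23 for KDM4C, 0.22 for ALKBH2, -0.24 for KDM3A, -0.19 for KDM2A and -0.12 for KDM5B. The median averaged LAA change of all members was -0.097 without a correction, -0.0389 with the implied lengths and -0.0485 with the offsets. For all tested genes these medians were 0.0101, 0.032 and 0.0259.

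**Figure D5:**
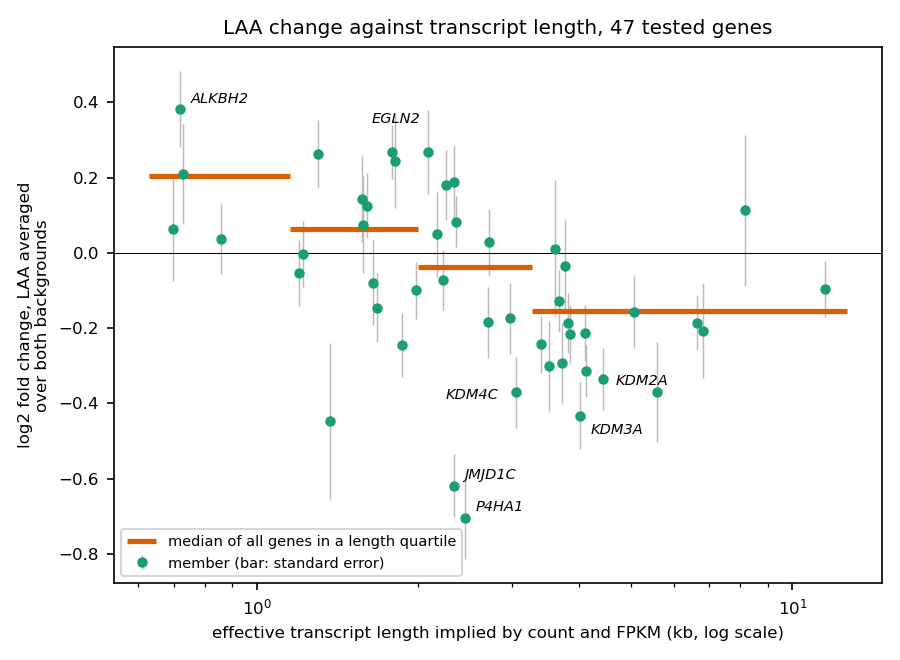
LAA change averaged over both backgrounds (log2 fold change, with standard error bars) of the 47 genes against effective transcript length (kb, log axis), with the median of all tested genes in each length quartile as a bar. The bars step down from 0.204 to -0.154; P4HA1 and JMJD1C, at -0.70 and -0.62, lie far below the bar of their own quartile, which is at -0.0388.

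The upstream sequence of genes called in the averaged LAA comparison was searched because P4HA1, which was lower there, is a known HIF target. RefSeq promoters (GRCh38.p14) were available for 47 of the 51 genes. The 250 bases before each start were searched on both strands for the HIF core, ACGTG or GCGTG, which is in capitals below. All 8 genes called in the averaged LAA comparison held at least 1 core before their outermost start, the 2 higher as well as the 6 lower: 2 in EGLN2, 1 in ALKBH2, 5 in KDM4C, 3 in KDM2A, 2 in JMJD1C and 1 each in KDM3A, KDM5B and P4HA1. For KDM3A, KDM4C and KDM5B all 250 bases lie inside the gene that GENCODE 29 annotates, so their cores do as well. For EGLN2 195 bases lie inside it and for ALKBH2 159. These windows are not shown. The windows of 3 of the 6 lower genes, JMJD1C, KDM2A and P4HA1, are shown. Those of JMJD1C, at chr10:63521891-63522140 (minus strand), and KDM2A, at chr11:67119013-67119262 (plus), lie outside the gene that GENCODE 29 annotates. Of the P4HA1 window 108 bases lie inside the annotated gene. The stretch shown, chr10:73096945-73097116 (minus), holds 172 of the 250 bases and keeps 30 of those inside the gene.
P4HA1: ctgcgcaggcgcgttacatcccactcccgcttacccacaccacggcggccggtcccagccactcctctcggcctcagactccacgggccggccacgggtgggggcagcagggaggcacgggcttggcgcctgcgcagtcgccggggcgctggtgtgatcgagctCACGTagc
JMJD1C: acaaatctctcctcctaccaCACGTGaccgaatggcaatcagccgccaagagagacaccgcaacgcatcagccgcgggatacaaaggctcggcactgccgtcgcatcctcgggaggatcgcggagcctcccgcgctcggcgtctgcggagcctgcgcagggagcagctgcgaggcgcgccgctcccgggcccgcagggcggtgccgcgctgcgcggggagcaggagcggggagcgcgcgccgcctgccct
KDM2A: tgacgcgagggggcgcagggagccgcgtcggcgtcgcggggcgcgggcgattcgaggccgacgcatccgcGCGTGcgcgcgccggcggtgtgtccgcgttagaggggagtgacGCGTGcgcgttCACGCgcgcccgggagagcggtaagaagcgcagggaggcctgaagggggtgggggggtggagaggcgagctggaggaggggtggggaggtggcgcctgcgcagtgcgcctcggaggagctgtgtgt
The P4HA1 window held CACGT, the HIF core read on the other strand, 86 bases before the RefSeq start and inside the gene as GENCODE 29 annotates it. The JMJD1C window held CACGTG, in which the core on both strands overlaps and which is also an E-box. The KDM2A window held 3 separate cores. Over all members 31 of 47 genes, and 39 of their 63 promoters (61.9%), held a core, against 43.2% of all 35116 promoters in the table. An E-box was in 7 of the 63 (11.1%, against 6.34% of all), and a retinoid half-site (AGGTCA or GGGTCA) in 9 (14.3%, against 22.4%). A match is a description of these letters and says nothing of binding.

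With both compounds, 4 members were higher and 16 lower than in vehicle, that is 8.51% and 34%, against a background of 23.1% of genes higher and 21.5% lower. The median log2 fold change of the members was -0.14, and that of all genes 0.01. Transcript length moved with these values too. From the shortest to the longest quartile, the medians of all genes were 0.299, 0.0928, -0.0577 and -0.22. The longest quartile held 18 of the tested members. With the lengths implied by the FPKM, the members' median was -0.111 and that of all genes 0.0333. With length and GC offsets they were -0.128 and 0.0417. Beyond these corrections, the part of length in the members' share was not tested. Higher were KDM2B, EGLN2, ALKBH6 and HSPBAP1, all of which ATRA alone had raised. Lower were KDM2A, KDM3A, KDM3B, KDM4B, KDM5B, KDM7A, JMJD1C, RIOX2, P4HA1, P3H3, PLOD1, ALKBH1, ALKBH5, FTO, OGFOD1 and ASPH. KDM3A fell by 1.00 on the log2 scale (SE 0.13, adjusted p = 5.28e-05), which is 0.5 times the vehicle level, with -0.57 for ATRA alone and -0.43 for LAA alone. P4HA1 fell by 0.95 (SE 0.16, adjusted p = 0.000383), FTO by 0.92 (SE 0.12, adjusted p = 7.99e-05) and ASPH by 0.78 (SE 0.15, adjusted p = 0.00113). EGLN2 rose by 0.84 (SE 0.10, adjusted p = 3.65e-05), 1.79 times the vehicle level.

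Of the 16, 8 were called against vehicle in LAA+ATRA and not in ATRA or LAA alone: KDM2A, KDM3B, KDM4B, KDM5B, JMJD1C, P4HA1, PLOD1 and ALKBH1, all of them lower. These 8 are 17% of the members, and 5.26% of all genes were called lower in this way and 5.28% higher. An effect past the threshold in 1 group and not in another is not shown to differ, and the interaction called none of them. KDM4B, an H3K9 demethylase, read 67.5 and 46.5 CPM in LAA+ATRA, 90.0 and 59.5 CPM in ATRA, 66.0 and 70.9 CPM in LAA, and 84.3 and 90.0 CPM in vehicle (log2 fold change -0.62, SE 0.19, adjusted p = 0.0188). Its ATRA and LAA+ATRA libraries were each far apart, and without LAA+ATRA replicate 2 the value was -0.37 (adjusted p = 0.172). KDM3B, an H3K9 demethylase, read 62.8 and 66.3 CPM in LAA+ATRA, 80.2 and 68.6 CPM in ATRA, 68.5 and 75.2 CPM in LAA, and 86.5 and 81.8 CPM in vehicle (-0.38, SE 0.11, adjusted p = 0.0126). ALKBH1, a demethylase of tRNA, read 9.62 and 11.7 CPM in LAA+ATRA, 10.8 and 13.2 CPM in ATRA, 15.3 and 16.5 CPM in LAA, and 15.0 and 16.4 CPM in vehicle (-0.56, SE 0.16, adjusted p = 0.0132). Its libraries split by ATRA rather than by LAA. PLOD1, a lysyl hydroxylase of collagen helices, read 175.9 and 141 CPM in LAA+ATRA against 220.8 and 220.5 CPM in vehicle (-0.48, adjusted p = 0.0114).

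Of the 20 calls, 11 were made without each library in turn, among them KDM3A, P4HA1, FTO, RIOX2 and EGLN2. Without vehicle replicate 1, the adjusted p was 0.15 for KDM2A, 0.102 for KDM3B, 0.0549 for KDM4B, 0.0545 for P3H3, 0.0623 for PLOD1, 0.111 for ALKBH5 and 0.0865 for ALKBH6. Without vehicle replicate 2, it was 0.0515 for KDM2A, 0.0887 for KDM4B, 0.104 for P3H3, 0.0558 for PLOD1, 0.087 for ALKBH1, 0.0644 for ALKBH5 and 0.118 for HSPBAP1. Leaving out LAA+ATRA replicate 1 gave 0.0609 for KDM3B and 0.107 for ALKBH1, and leaving out LAA+ATRA replicate 2 gave 0.111 for KDM2A, 0.172 for KDM4B, 0.102 for P3H3, 0.0963 for PLOD1 and 0.124 for ALKBH5. With the lengths implied by the FPKM, JMJD1C was at -0.14 (adjusted p = 0.541), KDM3B at -0.17 (0.235), KDM5B at -0.16 (0.28) and P3H3 at -0.33 (0.185), all nearer to 0 than without a correction. KDM4B at -0.52 (0.0507), ALKBH1 at -0.46 (0.131) and HSPBAP1 at 0.59 (0.0506) also missed the threshold, with changes close to those without a correction (-0.62, -0.56 and 0.65). With length and GC offsets, KDM2A was at -0.17 (0.149), KDM3B at -0.07 (0.536), KDM5B at -0.13 (0.252), ALKBH6 at 0.34 (0.165) and OGFOD1 at -0.19 (0.0561).

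Retinoic acid added to LAA called 6 members higher and 10 lower in LAA+ATRA than in LAA, 12.8% and 21.3%, against a background of 18.4% and 18% of genes. ATRA against vehicle and LAA+ATRA against LAA share no library. The sign was the same for 39 of 47 members (83%) and for 84% of all genes, with r of 0.934 and rho of 0.909 over the members as a description. In both, 14 members (29.8%, against 31.3% of all genes) were called in the same direction: KDM2B, KDM4A, KDM6B, EGLN2 and HSPBAP1 higher, and KDM3A, KDM7A, RIOX2, P3H3, ALKBH2, ALKBH5, FTO, OGFOD1 and ASPH lower. RIOX2 gave -0.88 in LAA+ATRA against LAA and -1.06 in ATRA against vehicle, FTO -0.61 and -0.74, KDM2B 0.78 and 0.79, and KDM7A -1.68 and -1.17. KDM5A, an H3K4 demethylase, was called higher against LAA alone (log2 fold change 0.29, adjusted p = 0.0471). It had missed the threshold in ATRA against vehicle (0.26, adjusted p = 0.0567). ALKBH1 was also lower against LAA alone (-0.58, SE 0.16, adjusted p = 0.014).

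Of these 16 calls, those of KDM2B, KDM3A, KDM7A, RIOX2, EGLN2, FTO and OGFOD1 were made without each library in turn. Without LAA replicate 1, the adjusted p was 0.138 for KDM4A, 0.269 for KDM5A, 0.142 for KDM6B, 0.0892 for ALKBH2, 0.0515 for ALKBH5 and 0.0947 for HSPBAP1. Without LAA replicate 2, it was 0.106 for KDM5A, 0.0804 for KDM6B, 0.0594 for P3H3, 0.0902 for ALKBH1, 0.118 for ALKBH2, 0.136 for ALKBH5, 0.13 for ASPH and 0.0999 for HSPBAP1. Leaving out LAA+ATRA replicate 1 gave 0.177 for KDM6B, 0.118 for ALKBH1, 0.122 for ALKBH2 and 0.0666 for HSPBAP1, and leaving out LAA+ATRA replicate 2 gave 0.0637 for KDM4A, 0.176 for KDM5A, 0.0635 for ALKBH2, 0.126 for ALKBH5, 0.135 for ASPH (-0.35, against -0.53 with all libraries) and 0.0604 for HSPBAP1. KDM5A was also not called without either vehicle library (0.0788 and 0.0797).

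Whether the compounds departed from additivity on the log2 scale was tested by the interaction. No member was called higher or lower in edgeR, against a background of 0.00667% of genes higher and 0% lower, nor in DESeq2. The 1 member with an unadjusted p under 0.05 was JMJD6, with an interaction of -0.44 (SE 0.18, adjusted p = 0.977). The interval for P4HA1 was -0.47 to 0.48 around 0.00, and for EGLN2 -0.44 to 0.18 around -0.13, so departures from additivity within these bounds are not excluded.

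In all, 26 members (55.3%) were called in at least 1 of the 6 comparisons, as were 55.9% of all tested genes, and 21 were tested and called in none. Those 21 are KDM5C, PHF8, PHF2, KDM6A, RIOX1, KDM8 and JMJD4, EGLN1, P4HTM, P3H1, PLOD3, ALKBH3, ALKBH4, ALKBH7, OGFOD2, OGFOD3, PHYH, TMLHE, TYW5, JMJD6 and KDM4C.

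Lists around the enzymes were counted with the same test. The counts for ATRA below stand against the background of 21.9% of all tested genes higher and 21% lower. Those for LAA alone stand against 0.02% and 0.00667%, so a count of 0 is what nearly any list would give. Those for LAA added to ATRA stand against 0.493% and 0.52%. Of 15 genes that supply or use 2-oxoglutarate, ATRA raised 2 and lowered 9. The cytosolic branched-chain aminotransferase BCAT1 fell by 3.004 on the log2 scale (SE 0.13), the serine-pathway aminotransferase PSAT1 by 2.53 (SE 0.11) and the mitochondrial aspartate aminotransferase GOT2 by 0.96 (SE 0.10). Of 7 genes that clear succinate, fumarate and 2-hydroxyglutarate, which inhibit these dioxygenases, ATRA lowered 4 and raised none: among them fumarate hydratase, FH (-0.71, adjusted p = 0.0002021) and the succinate dehydrogenase subunit SDHA (-0.56, adjusted p = 0.0009476). LAA alone called none in either list.

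In the HIF pathway, 2 of 10 partners rose and 1 fell with ATRA. HIF1A rose by 0.73 (SE 0.11) and EPAS1 by 0.66 (SE 0.15), and the ubiquitin ligase SIAH2 fell by 0.90 (SE 0.10). When LAA was added to ATRA, HIF1A was lower (-0.54, adjusted p = 0.04661). Of 14 tested HIF targets outside the set, ATRA raised 2 and lowered 6. Among those lowered were MXI1 (-1.14), PDK1 (-1.36) and VEGFA (-1.17). Over the 14, ATRA gave 3 positive and 11 negative log2 fold changes, from -1.36 to 1.62, so the largest change was a rise. LAA alone called none of the 14, with 8 positive and 6 negative log2 fold changes and a median of 0.02. LAA added to ATRA also called none of them, with 2 positive and 12 negative and a median of -0.24. In the averaged LAA comparison, with 3 positive and 11 negative and a median of -0.17, 3 of these 14 (21.4%, against 5.98% of all genes) were lower, BNIP3L, NDRG1 and MXI1. That comparison was added after the data were seen. These 3 calls and that of HIF1A are given without values for leaving out a library or correcting for length.

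Around the collagen enzymes, 8 partners and processing genes gave 2 higher and 3 lower with ATRA; lower were COLGALT1 (-0.68), COLGALT2 (-2.19) and the collagen chaperone SERPINH1 (-1.82). Of 14 collagens and other substrates 6 could be tested; the complement gene C1QA rose by 5.29 (SE 0.57) and COL6A1 fell by 1.90 (SE 0.39). Of 14 tested m6A writers and readers, 2 rose and 3 fell with ATRA, among them the reader IGF2BP2 (-2.30, SE 0.17), the writer subunit WTAP (0.59, SE 0.12) and RBM15 (-0.59, SE 0.17). Of 17 histone methyltransferases that oppose the demethylases, 1 rose and 4 fell, with EHMT2 at -0.77 (SE 0.10), NSD2 at -0.64 (SE 0.10) and KMT2C at 0.42 (SE 0.11). Both FAD-dependent histone demethylases, which need neither 2-oxoglutarate nor ascorbate, fell with ATRA: KDM1B by 0.90 (SE 0.10) and KDM1A by 0.73 (SE 0.11). Of 2 tested DNA alkylation repair genes outside the ALKBH family, APEX1 fell by 0.33 (SE 0.11, adjusted p = 0.02963). Of 5 tested relatives of the same families outside the 51, none was called with ATRA or LAA alone. KDM4D was lower in LAA+ATRA against vehicle (-2.54, SE 0.76, adjusted p = 0.01688) and ASPHD1 in LAA+ATRA against LAA (-0.59, SE 0.16, adjusted p = 0.01363), both named after their values were seen.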

How the data were processed

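The members and the accompanying lists were chosen with earlier results of these data known. Per the submitters' processing notes, the tools were Salmon 1.8.0 and DESeq2 1.36.0 and the build was GRCh38 (hg38). Neither annotation release nor strand setting is given in the sources used. The authors deposited estimated counts per gene and FPKM (per the file headers). Rounding the estimated counts for the test altered 16.5% of values. Library totals were 18462552 to 24166770. Another 25951 listed IDs have no symbol in the files and could not be matched by name.

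Genes with low counts were removed (filterByExpr), libraries were scaled by TMM and the 4 groups were fitted with edgeR 4.0.16 quasi-likelihood in R 4.3.3, with 4 residual degrees of freedom and two-sided tests. Of 61125 genes 14995 were tested. The test was tried on simulated data with known changes. Alternatives were DESeq2 1.42.0, limma 3.58.1 on log2(FPKM + 1) and log2(FPKM + 0.1), other scaling and filters, and leaving out each library. Length and GC corrections and the averaged LAA comparison were added after seeing the data. Effective length is the count divided by the FPKM, up to depth. Named members are those called in any of the 6 planned comparisons with an absolute log2 fold change of at least 0.5 and the most abundant of each family; KDM2A and KDM4C and other single values were chosen after their values were seen. From each accompanying list at most the 3 called genes with the smallest adjusted p were named; those named for LAA were chosen after their values were seen. Replicates differed by more than counting noise in every group. Exons are from GENCODE 29 and promoters from RefSeq GRCh38.p14. Some results are not reported here.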

Additional observations from a re-analysis of the deposited data

How the results depend on the processing

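Counts are members called higher and lower, with the share of all genes so called under the same setting in parentheses. ATRA against vehicle (7 and 10) gave 3 and 5 with limma on log2(FPKM + 1) without a filter (8.63% and 7.47%). LAA against vehicle (0 and 0) gave 1 and 4 with DESeq2 (2.79% and 1.97%), 2 and 7 with only the compared libraries (8.59% and 6.79%) and 0 and 3 with no low-count filter (2.1% and 1.1%). LAA+ATRA against vehicle (4 and 16) gave 2 and 6 with limma on log2(FPKM + 1) without a filter (9.06% and 7.7%), 9 lower with limma on log2(FPKM + 1) or log2(FPKM + 0.1) (18.1% in both), and 8 higher with length and GC offsets (25%). LAA+ATRA against ATRA (0 and 1) gave 4 lower with DESeq2 (2.33%), 5 with no low-count filter (1.67%), and 0 with the replicate block, the compared libraries alone, limma or either length correction (at most 0.373%). With 1 library left out, the members' median log2 fold change ranged from -0.0312 to 0.0504 in ATRA against vehicle. For LAA against vehicle it ranged from -0.168 to -0.0369, and for LAA+ATRA against vehicle from -0.171 to -0.108. The range was -0.149 to -0.0151 in LAA+ATRA against LAA. The averaged LAA comparison (2 and 6) gave 1 and 1 with limma with a filter (2.17% to 2.24% and 1.42% to 1.46%), 0 and 0 without (0.0967% and 0.0348%), 1 and 2 with either length correction (4.29% and 3.19% with implied lengths, 3.51% and 2.14% with offsets), 1 and 6 with the replicate block (4.95% and 4.27%), and 0 to 2 and 2 to 11 with 1 library left out. The interaction called no member under any setting run. The cause of these differences was not tested.

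Values that changed sign were mostly near 0. With 1 library left out, KDM4B in ATRA against vehicle ranged from -0.5395 to 0.04768. In LAA+ATRA against vehicle the ranges were -0.04943 to 0.2466 for KDM6A, -0.07019 to 0.1763 for JMJD6, -0.1081 to 0.1523 for P3H1 and -0.08958 to 0.6566 for ALKBH7. In LAA+ATRA against LAA they were -0.4776 to 0.07067 for EGLN1, -0.5471 to 0.02481 for P4HA1 and -0.1599 to 0.5756 for ALKBH7. With length and GC offsets, LAA+ATRA against vehicle gave -0.1588 for JMJD6, -0.1249 for P3H1 and -0.1277 for ALKBH7. PLOD3 in that comparison was 0.01966 with limma on log2(FPKM + 1), with and without a filter, 0.01979 on log2(FPKM + 0.1) and 0.04632 with the implied lengths.

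Same-numbered libraries did not deviate together (correlations of -0.0727 to 0.0771 between groups). This gives no sign of a pairing by number but cannot exclude one. With the replicate block the counts against vehicle were 6 and 10 for ATRA (20.9% and 20.1% of all genes called higher and lower). For LAA against vehicle they were 0 and 0 (0.0133% and 0%). They were 4 and 18 for LAA+ATRA against vehicle (22.3% and 20.9%) and 5 and 10 for LAA+ATRA against LAA (17.4% and 17%). Of 62 member results called, 17 were called under every alternative and 28 without each library in turn. With 2 libraries per group, the LAA changes near the threshold could not be settled.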
